A study of Mus musculus with 2 samples.

Results

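The genes described here carry peptide fragments to the cell surface for inspection by cytotoxic T cells, together with Cd274, which encodes PD-L1. They were chosen by symbol in the deposited count table of CE1-4, a mouse prostate cancer cell line, and all 10 were found among its 23420 rows. They are H2-K1, H2-D1, B2m, Tapbp, Tap1, Tap2, Psmb8, Psmb9, Nlrc5 and Cd274. One library came from untreated cells and 1 from cells exposed to prostaglandin E2 (PGE2), a lipid signal that tumor cells with high COX-2 release, for 6 h. The labels give no PGE2 dose, no vehicle, no time for the untreated cells and no mouse strain, so vehicle, time in culture and PGE2 cannot be told apart as sources of a difference. With 1 library per group no difference has a replicate check and no p-value was computed. Intervals are 95% counting intervals, which cover counting error only, and describe this pair of libraries.

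Class I molecules are a heavy chain, such as the products of H2-K1 and H2-D1, paired with beta-2-microglobulin, the product of B2m. Proteasomes cut cytosolic proteins into peptides, the TAP1 and TAP2 transporter moves these into the endoplasmic reticulum, and tapasin (Tapbp) holds the empty heavy chain at the transporter until a peptide fits. Interferon gamma raises most of these genes, replaces 3 catalytic proteasome subunits by inducible ones, and acts in part through Nlrc5, a transactivator recruited to class I promoters by a complex of RFX, CREB or ATF and NF-Y proteins. PD-L1 restrains T cells by binding PD-1 and is also raised by interferon gamma.

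Promoter windows were searched for letters of motifs known for some of those factors, with no RFX motif among them. The windows of the 3 genes that make the class I molecule, with that of Tap1, are shown. They run 5′ to 3′ along each gene's own strand from 250 bases before to 50 after the start, from RefSeq on GRCm38.p6, with matches to 5 motifs in capitals. The motifs, searched on both strands, were GAAA repeated after a gap of 2 bases (the interferon-stimulated response element), the NF-kB site, TTCNNNGAA (the STAT site GAS), CCAAT (bound by NF-Y) and TGACG (the core bound by CREB and ATF).
H2-K1, chr17:34000298-34000597, minus strand: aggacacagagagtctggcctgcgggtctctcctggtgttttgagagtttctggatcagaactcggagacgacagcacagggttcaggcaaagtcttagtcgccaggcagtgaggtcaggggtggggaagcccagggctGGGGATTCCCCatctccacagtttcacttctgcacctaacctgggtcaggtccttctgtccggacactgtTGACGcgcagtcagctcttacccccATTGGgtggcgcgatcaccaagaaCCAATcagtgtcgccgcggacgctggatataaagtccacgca
H2-D1, chr17:35262844-35263143, plus strand: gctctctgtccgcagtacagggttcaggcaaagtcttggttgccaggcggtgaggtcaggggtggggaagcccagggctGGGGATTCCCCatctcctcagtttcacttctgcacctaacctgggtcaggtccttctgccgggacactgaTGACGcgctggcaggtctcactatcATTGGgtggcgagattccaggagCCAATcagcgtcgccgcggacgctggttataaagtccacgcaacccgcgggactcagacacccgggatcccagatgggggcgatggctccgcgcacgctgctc
B2m, chr2:122147437-122147736, plus strand: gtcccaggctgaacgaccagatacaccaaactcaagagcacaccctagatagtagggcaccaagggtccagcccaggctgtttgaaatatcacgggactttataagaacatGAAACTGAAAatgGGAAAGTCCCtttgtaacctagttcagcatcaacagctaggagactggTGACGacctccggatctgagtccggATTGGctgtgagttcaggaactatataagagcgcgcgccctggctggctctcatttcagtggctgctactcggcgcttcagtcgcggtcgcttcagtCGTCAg
Tap1, chr17:34187306-34187605, plus strand: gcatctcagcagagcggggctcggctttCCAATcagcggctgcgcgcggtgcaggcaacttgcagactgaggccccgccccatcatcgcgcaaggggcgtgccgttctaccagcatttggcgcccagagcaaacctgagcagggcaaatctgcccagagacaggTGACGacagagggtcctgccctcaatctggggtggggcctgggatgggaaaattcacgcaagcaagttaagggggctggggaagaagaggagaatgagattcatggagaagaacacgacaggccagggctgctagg

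The H2-K1, H2-D1 and B2m windows held TGACG and ATTGG, which is CCAAT read on the other strand, at the same distance. In each, ATTGG began 25 bases after TGACG, with 20 bases between them. That spacing was taken from these windows after the single matches had been seen, so their own matches were fixed in advance. Searched for on both strands, it was found in 31 of 32851 promoter windows (0.0944%, 0.0641 to 0.134%), these included. There were 9 windows for 8 of the genes described here, without Tap2 and Nlrc5. The spacing was in 4, from H2-K1 (which has 2 overlapping windows), H2-D1 and B2m. Of the 18 windows of listed class I chain genes, B2m included, 5 had it. Those were the same 4 and that of H2-M3, a chain that presents formylated peptides. The H2-K1 and H2-D1 windows shared an unbroken run of 47 bases that holds the NF-kB match (GGGGATTCCCC), and 90.7% of 227 aligned bases were identical. In B2m the NF-kB match (GGAAAGTCCC) followed a response element match, GAAACTGAAA. Only this exact spaced form of the element was searched. A window without a match, such as those of H2-K1 and H2-D1, may thus still hold a variant of it. Of all windows, 3.44% held the response element, 8.46% an NF-kB match, 8.30% TTCNNNGAA, 37.4% CCAAT and 20.8% TGACG. In the Psmb8 window the match was TTCCCAGAA, and in the Tapbp window ATTGG occurred at 2 places. No letters of these 5 motifs were found in the Cd274 window. The Tap1 window is also most of the Psmb9 window, since the annotated starts of these genes lie 226 bases apart on opposite strands and the windows share 275 of 300 bases. A match is a string of letters and not evidence of binding.

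Levels fell into separate tiers that were alike in both libraries. They are compared between genes per length, as TPM, counts divided by the union of annotated exons and scaled to a common total. B2m was the highest at 294 TPM (277 to 312) untreated and 256 TPM (241 to 273) with PGE2. H2-D1 followed at 99.2 TPM (93.4 to 105.2) and 98.0 TPM (92.4 to 103.9), Tapbp at 50.7 TPM (47.2 to 54.3) and 49.1 TPM (45.8 to 52.6), and H2-K1 at 18.0 TPM (15.8 to 20.5) and 17.9 TPM (15.7 to 20.4). The intervals of these neighbours did not overlap. B2m was at percentile 97.5 of the 23001 rows with a length in the untreated library, H2-D1 at 92.0, Tapbp at 85.3 and H2-K1 at 72.6.

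**Figure D1:**
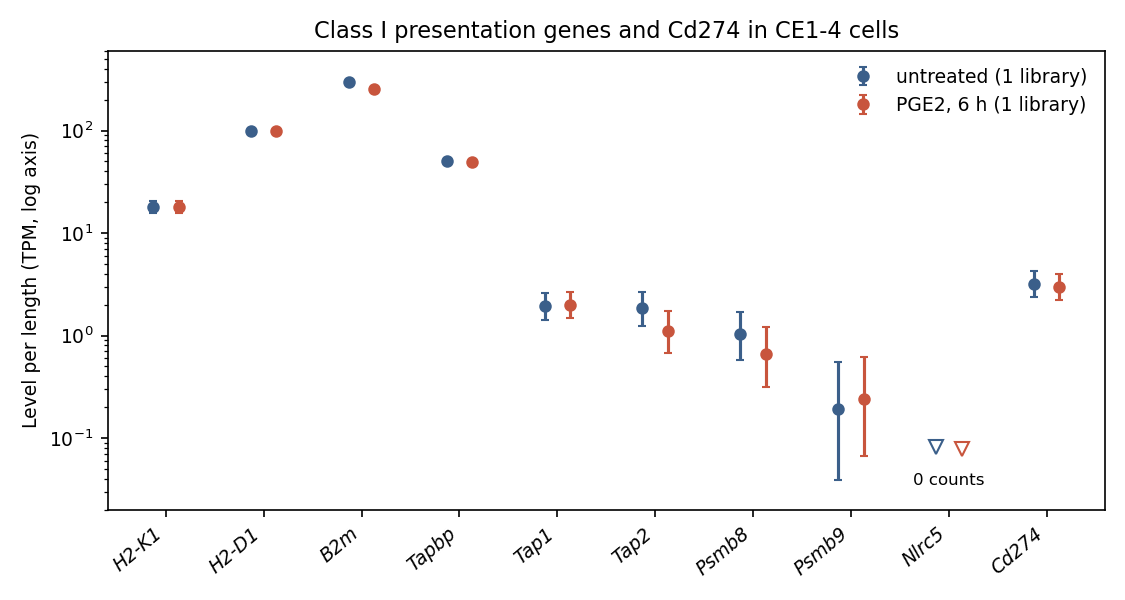
Level per length in TPM (log axis) of the 10 genes in the untreated and the PGE2 library, with exact 95% Poisson intervals; open triangles mark the limit of 3 counts for Nlrc5, which had 0 counts. B2m, H2-D1, Tapbp and H2-K1 lie at 17.9 TPM or above, and the other genes at 3.21 TPM or below.

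The transporter, the inducible proteasome subunits and Cd274 formed the low tier. Cd274 was at 3.21 TPM (2.38 to 4.23) untreated and 3.01 TPM (2.23 to 3.98) with PGE2. Tap1 was at 1.95 TPM (1.43 to 2.60) and 1.99 TPM (1.47 to 2.63), and Tap2 at 1.84 TPM (1.24 to 2.63) and 1.12 TPM (0.673 to 1.74). Psmb8 was at 1.03 TPM (0.577 to 1.70) and 0.658 TPM (0.315 to 1.21), and Psmb9 at 0.190 TPM (0.0393 to 0.557) and 0.243 TPM (0.0662 to 0.622). Neighbours in this order had overlapping intervals, except Psmb8 and Psmb9 in the untreated library. With lengths of the longest coding transcript the 4 upper genes kept their order, Tap1 moved above Cd274, and Psmb8 moved above Tap2. Nlrc5 had 0 counts in both libraries, which allows up to 0.178 CPM (counts scaled to library size with TMM, the trimmed mean of M values) untreated and 0.170 CPM with PGE2, taken as 3 counts. In TPM these limits are 0.0821 and 0.0785.

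Between the libraries, 6 of the 7 genes that reached 1 CPM had an interval that included a ratio of 1, and B2m was lower with PGE2. An interval below 1 was found for 5.65% of all 11387 genes at 1 CPM, an interval above 1 for 6.61% and either for 12.3%. None of the 7 passed the rule of a 2-fold ratio with an interval excluding 1, which 0.307% of all genes passed. A 2-fold difference lay outside the interval, both upward and downward, for 6 of the 7 (all but Tap2) and for 92.4% of all genes. The median log2 ratio of the 7 was -0.05, against -0.0014 over all 11387. Psmb8, Psmb9 and Nlrc5 were under 1 CPM in both libraries.

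B2m had 1089 counts untreated and 992 with PGE2, 64.6 CPM (60.8 to 68.5) against 56.3 CPM (52.8 to 59.9). These counting intervals did not overlap. The log2 ratio of PGE2 over untreated was -0.20 (-0.32 to -0.07), a fold of 0.871. For the 2906 genes whose summed counts ran from 1000 to below 3000, as those of B2m do, the central 90% of log2 ratios ran from -0.15 to 0.14, with a standard deviation of 0.089. B2m thus lay below that central range. In a culture measured in bulk, fewer cells with a transcript and less of it per cell cannot be told apart.

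The intervals of both heavy chain genes included a ratio of 1. H2-D1 had 1101 counts untreated and 1137 with PGE2, 65.3 CPM and 64.5 CPM, a log2 ratio of -0.02 (-0.14 to 0.10). H2-K1 had 228 and 237 counts, 13.5 CPM and 13.4 CPM, a log2 ratio of -0.0084 (-0.28 to 0.26). Per length, H2-D1 was 5.50 times H2-K1 (4.77 to 6.37) untreated and 5.47 times (4.75 to 6.31) with PGE2, and 3.72 and 3.70 times with the length of the longest coding transcript. In GENCODE M21 on GRCm38, H2-K1 occupies 33996017 to 34000347 of chromosome 17 (minus strand) and H2-D1 35262730 to 35267499 (plus strand), while B2m occupies 122147686 to 122153083 of chromosome 2. Class I chains are similar to each other and differ between strains, so their counts are uncertain beyond counting error. Of the 50-base windows in H2-K1 transcripts 9.63% also occur in transcripts of other genes, most often H2-Q10, and 12.8% of those in H2-D1, most often H2-Q1. H2-Q10 had 2 counts in each library and H2-Q1 had 4 and 1. B2m shared 0 of its 811 windows.

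**Figure D2:**
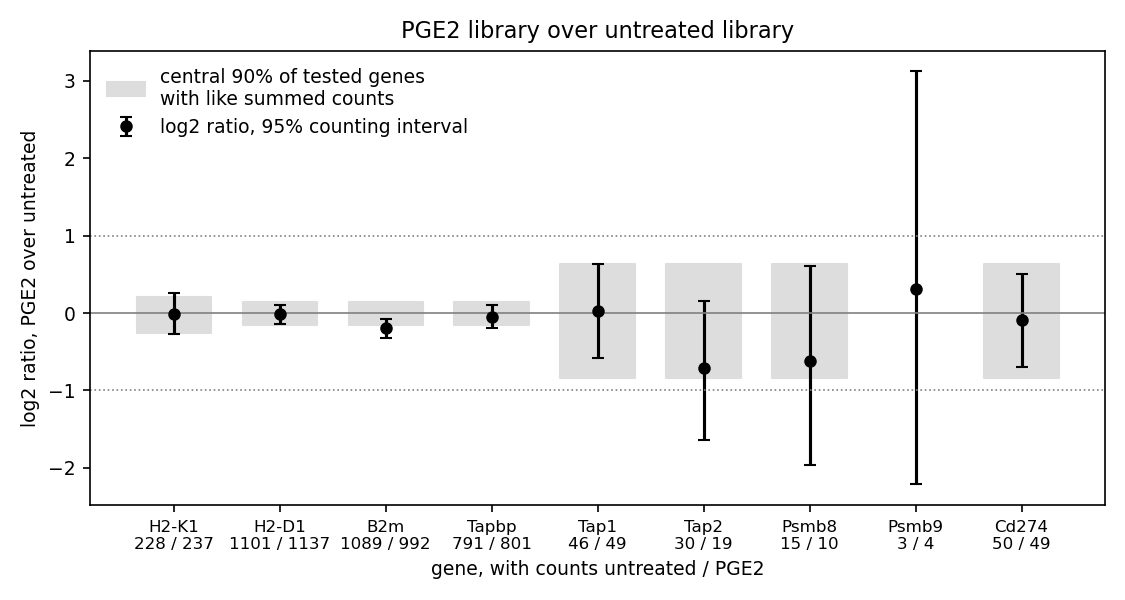
Log2 ratio of the PGE2 library over the untreated library for the 9 genes with counts, with 95% counting intervals; the grey bands span the central 90% of genes at 1 CPM with like summed counts, and dotted lines mark 2-fold. B2m at -0.20 is the point whose interval lies wholly below 0, and Psmb9, with 3 and 4 counts, has no band.

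The other class I chains ranged from no counts to levels per length above that of H2-K1, with H2-M3 at 36.0 TPM and H2-T23 at 25.9 TPM untreated. H2-T10 at 5.64 TPM and H2-Q4 at 5.01 TPM came next. Of 23 listed genes, B2m included, 11 reached 1 CPM and 6 had 0 counts in both libraries. H2-T23, which encodes Qa-1, a ligand of the NKG2A receptor, had 322 and 306 counts, a log2 ratio of -0.14 (-0.37 to 0.09). H2-M3 had 223 and 206 counts (-0.18, -0.46 to 0.10). The interval was below 1 for B2m and for H2-T22, a ligand of gamma delta T cells, which had 46 and 29 counts (-0.72, -1.45 to -0.03). It was above 1 for none of the 11. These shares are 18.2% below and 0% above, against 5.65% and 6.61% of all genes. Ratios were below 1 for 10 of the 11 genes, all but H2-T24, and for 5758 of the 11387 genes at 1 CPM. The list's median log2 ratio was -0.20, from -0.21 to -0.14 over the other settings. Genes with 20 to below 100 summed counts, where several of these chains lie, had a median of -0.06 and a central 90% from -0.84 to 0.64, which holds the ratio of H2-T22. Summed over the 22 heavy chain genes, of which 2 had no length and 0 counts, the level was 201 TPM untreated and 188 TPM with PGE2. H2-D1 made up 49.5% and 52.0% of it and H2-K1 8.99% and 9.52%. B2m stood at 1.47 and 1.36 times that sum.

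Among the peptide loading genes, the chaperones shared with other glycoproteins were abundant and the dedicated transporter was scarce. Tap1 had 46 counts untreated and 49 with PGE2, 2.73 CPM and 2.78 CPM, a log2 ratio of 0.03 (-0.58 to 0.64). Tap2 had 30 and 19 counts, 1.78 CPM and 1.08 CPM, a log2 ratio of -0.71 (-1.63 to 0.15). The Tap2 interval includes both no difference and a 2-fold one, so this depth does not settle it. Tapbp had 791 and 801 counts, 46.9 CPM and 45.4 CPM, a log2 ratio of -0.05 (-0.19 to 0.10). On the plus strand of chromosome 17, Tapbp occupies 33915899 to 33929292, Tap1 34187553 to 34197225 and Tap2 34203527 to 34216321. Antisense annotations overlap 24.9% of the exon bases of Tapbp (Gm19412) and 14.1% of those of Tap2 (Gm15821). How the counting used strand is not given here, so reads from such partners cannot be told apart from those of the gene.

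The rest of the loading list holds calreticulin, calnexin and ERp57, which fold many glycoproteins besides class I. All 13 of its genes reached 1 CPM, with 3 intervals above 1 (23.1%) and 1 below (7.69%), against 6.61% and 5.65% of all genes. The median log2 ratio was 0.0066, which turns to -0.0023 when totals are taken without Rn45s, Lars2 and Malat1. Canx (calnexin) had 43683 and 48267 counts, a log2 ratio of 0.08 (0.06 to 0.10), Pdia3 (ERp57) 18711 and 20277 (0.05, 0.02 to 0.08) and Hspa5 (BiP) 37588 and 41326 (0.07, 0.05 to 0.09). These ratios lie within the central 90% of genes with at least 10000 summed counts, from -0.07 to 0.11. Calr (calreticulin) had 20362 and 21479 counts (0.01, -0.01 to 0.04). Tapbpl, which encodes the peptide editor TAPBPR, was lower with PGE2, with 115 and 78 counts (-0.62, -1.06 to -0.20), outside the central 90% of genes with 100 to below 300 summed counts (-0.40 to 0.35). Per length Canx stood at 2163 TPM untreated and Tapbpl at 11.4 TPM.

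Peptide trimming genes were expressed in both libraries, and all 8 listed reached 1 CPM. Each had an interval that included 1, as did 9991 of all 11387 genes at 1 CPM. Erap1, the aminopeptidase that trims class I peptides in the endoplasmic reticulum, had 732 and 736 counts (-0.06, -0.21 to 0.09). The most abundant in CPM were the cytosolic peptidases Tpp2 (4406 and 4798 counts, 0.06, -0.00061 to 0.12) and Npepps (3193 and 3344, 0.0024, -0.07 to 0.07), the insulin-regulated aminopeptidase Lnpep (3630 and 3745, -0.02, -0.09 to 0.05) and Nrd1 (1859 and 1897, -0.04, -0.13 to 0.06).

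The inducible proteasome subunits were far below the constitutive subunits whose places they take. Psmb8 had 15 counts untreated and 10 with PGE2, and Psmb5, which it replaces, 926 and 1011. Psmb9 had 3 and 4 counts, and Psmb6, which it replaces, 1654 and 1827. Psmb10, the third inducible subunit, had 70 and 91 counts, against 3771 and 3686 for Psmb7. Per length, Psmb8 was 0.429% of the Psmb8 and Psmb5 pair (0.240 to 0.709%) untreated and 0.262% (0.126 to 0.483%) with PGE2. Psmb9 was 0.0927% of its pair (0.0191 to 0.271%) untreated and 0.112% (0.0305 to 0.286%) with PGE2. Psmb10 had the highest share, 3.59% (2.82 to 4.50%) and 4.72% (3.83 to 5.75%). For each pair the intervals of both libraries overlapped. With the length of the longest coding transcript the untreated shares were 0.887% for Psmb8, 0.107% for Psmb9 and 1.62% for Psmb10, so the order of the pairs stayed. The intervals of these shares are Clopper-Pearson.

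**Figure D3:**
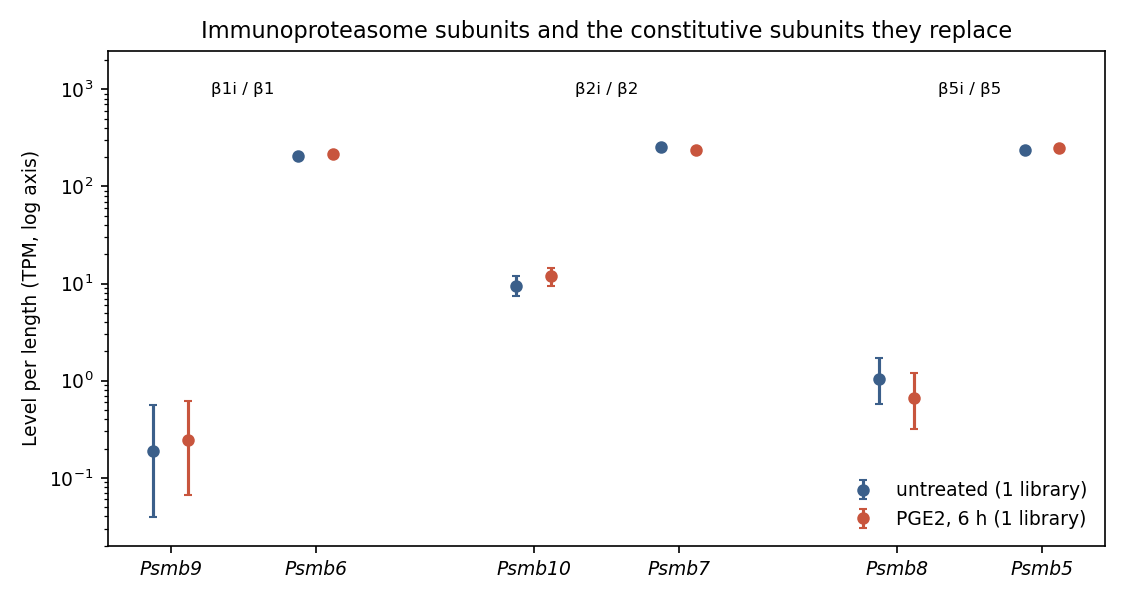
Level per length in TPM (log axis) of 3 inducible proteasome subunit genes and of the constitutive subunit each replaces, in both libraries, with exact 95% Poisson intervals. The constitutive genes lie between 205 and 256 TPM, and Psmb8 and Psmb9 at 1.03 TPM or below.

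The log2 ratio of Psmb8 was -0.62 (-1.96 to 0.60) and that of Psmb9 0.31 (-2.21 to 3.12), intervals too wide to show a difference at this depth. Psmb8 (34197721 to 34201454, plus strand) and Psmb9 (34181987 to 34187764, minus strand) flank Tap1 on chromosome 17. Exons of Psmb9 and Tap1 overlap by 212 bases on opposite strands. The log2 ratio of Psmb10 was 0.31 (-0.15 to 0.79). The activator PA28, which is also raised by interferon gamma, was expressed well above the inducible subunits, with Psme1 at 61.0 TPM and Psme2 at 183 TPM untreated. Psme1 had 580 and 623 counts (0.04, -0.13 to 0.21), Psme2 1390 and 1374 (-0.08, -0.19 to 0.03), and the assembly factor Pomp 1735 and 1750 (-0.05, -0.15 to 0.04). Of the 14 constitutive core genes, which all reached 1 CPM, 2 had an interval above 1 and 1 below, against 6.61% and 5.65% of all genes. Those above were Psma3, with 4978 and 5519 counts (0.08, 0.03 to 0.14), and Psma4, with 4762 and 5240 (0.07, 0.02 to 0.13), both inside the central 90% of genes with at least 10000 summed counts. Psmb7 (-0.097, -0.16 to -0.03) was the one below, just outside the central 90% for 3000 to below 10000 summed counts (-0.092 to 0.12). Psma2 had 4952 and 5063 counts (-0.03, -0.09 to 0.02) and Psma1 4065 and 4261 (0.0037, -0.06 to 0.07).

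The transactivator Nlrc5 was not detected, while genes of its partner complex and of interferon signaling were. Nlrc5, with 8493 exon bases between 94434356 and 94527272 of chromosome 8, had 0 counts in both libraries. The RFX genes were counted in both, with 203 and 226 counts for Rfx5, 64 and 64 for Rfxank, and 164 and 161 for Rfxap. The NF-Y subunit gene Nfya was lower with PGE2, with 419 and 352 counts (-0.32, -0.52 to -0.11), outside the central 90% of genes with 300 to below 1000 summed counts (-0.25 to 0.21). Its partner Nfyb had 1404 and 1408 counts (-0.06, -0.17 to 0.05). Creb1 had 1779 and 1931 counts (0.05, -0.04 to 0.15). The Polycomb genes Suz12 (3272 and 3710 counts, 0.12, 0.05 to 0.19) and Ezh2 (1311 and 1429, 0.06, -0.05 to 0.17) belong to a repressor known to act on class I genes. Suz12, at 0.117, lay inside the central 90% of genes with 3000 to below 10000 summed counts (-0.092 to 0.122). Of 17 listed factors 16 reached 1 CPM, with a median log2 ratio of -0.05. Of the 16, 1 had an interval above 1 and 1 below (6.25% each), against 6.61% and 5.65% of all genes.

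Interferon gamma receptor and JAK-STAT genes were expressed in both libraries, and the interferon genes listed were at 0. Ifngr1 had 2251 and 2344 counts (-0.0059, -0.09 to 0.08) and Ifngr2 954 and 956 (-0.06, -0.19 to 0.07). Jak1 had 4474 and 4660 counts (-0.0055, -0.07 to 0.05), Jak2 3586 and 3933 (0.07, 0.0033 to 0.13) and Ifnar1 1481 and 1463 (-0.08, -0.19 to 0.02). Irf1, an interferon-induced transcription factor, had 573 and 562 counts (-0.09, -0.26 to 0.08). Irf2 had 63 and 68 counts and the feedback inhibitor gene Socs1 had 8 and 6. Ifng and Ifnb1 had 0 counts in both libraries. Jak2 was the 1 gene with an interval excluding 1 among the 14 of 17 that reached 1 CPM. These shares are 7.14% above and 0% below, against 6.61% and 5.65% of all genes. The ratio of Jak2 lay inside the central range of genes with 3000 to below 10000 summed counts (-0.092 to 0.122).

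Of 25 listed interferon-stimulated genes 13 reached 1 CPM. All 13 had an interval that included 1, as did 9991 of all 11387 genes at 1 CPM. The median log2 ratio of the 13 was 0.0060. It turned to -0.0027 with totals taken without Rn45s, Lars2 and Malat1 and to -0.0061 with no minimum. The GTPase gene Irgm1 was the most abundant, with 3888 and 3924 counts (-0.05, -0.11 to 0.01), followed by Ifit2 (334 and 328, -0.09, -0.31 to 0.13), Ifi35 (266 and 298, 0.10, -0.14 to 0.34) and Parp14 (250 and 276, 0.08, -0.17 to 0.33). Cxcl10 and Cxcl11, chemokines raised by interferon gamma, had 0 counts in both.

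**Figure D4:**
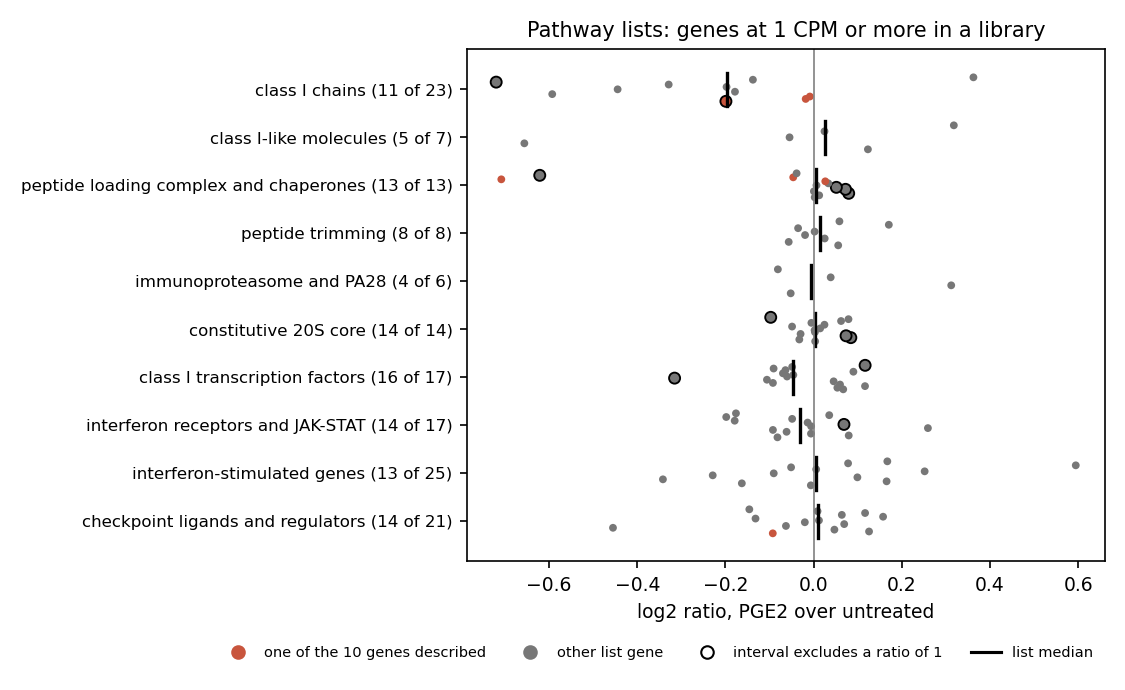
Log2 ratio of the PGE2 library over the untreated library for each gene at 1 CPM or more in a library, by list, with the number at that level of the number in the table; bars mark list medians, and outlined points have a 95% counting interval that excludes a ratio of 1. The class I chain list has the lowest median, -0.20, of the 10 lists shown, and the others lie between -0.05 and 0.02.

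Cd274, on chromosome 19 from 29367455 to 29388095, had 50 counts untreated and 49 with PGE2. Its level was 2.97 CPM (2.20 to 3.91) untreated and 2.78 CPM (2.06 to 3.67) with PGE2. The log2 ratio was -0.09 (-0.69 to 0.50), so the interval includes no difference and excludes a 2-fold one in either direction. An antisense annotation, AC119228.1, overlaps 14.1% of its exon bases. The gene of the other PD-1 ligand, Pdcd1lg2, and that of PD-1 itself, Pdcd1, had 0 counts in both libraries. Among genes of proteins that act on PD-L1 after its synthesis, levels per length differed widely. Stub1, a ubiquitin ligase gene, was at 6.53 TPM (5.11 to 8.23) untreated. Cmtm6, whose product keeps PD-L1 at the surface, was at 89.0 TPM untreated with 1317 and 1445 counts (0.07, -0.04 to 0.18), and its relative Cmtm4 at 53.9 TPM with 1793 and 1795 (-0.06, -0.16 to 0.03). The kinase genes Csnk2a1 (6835 and 7049 counts, -0.02, -0.07 to 0.03) and Gsk3b (1817 and 1916, 0.01, -0.08 to 0.11) were the most abundant of the list in CPM. Of the 21 listed genes of checkpoint ligands and their regulators 14 reached 1 CPM. Each had an interval that included 1, as did 9991 of all 11387 genes at 1 CPM.

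Both libraries had the pattern of an epithelial line with little sign of leukocytes. The 9 luminal epithelial markers summed to 2731 CPM untreated and 2810 CPM with PGE2, mostly Krt8, Krt18 and Krt19, whereas the prostate gene Pbsn had 0 counts in both. The 5 basal markers summed to 20.5 and 22.5 CPM and the 7 fibroblast markers to 11.4 and 9.13 CPM. Among the latter, Col3a1 had 16 and 3 counts, a log2 ratio of -2.30 (-4.90 to -0.67). It was under 1 CPM in both libraries, so the shares over all genes do not cover it. Dcn (2 and 6 counts) and Col1a2 (0 and 2) went the other way. The fibroblast markers that reached 1 CPM, Col1a1 (83 and 76) and Pdgfra (92 and 74), had intervals that included 1. The 21 leukocyte markers summed to 5.57 and 4.88 CPM, with 11 and 12 of them at 0, and Cd68 made up most of this with 70 and 66 counts. Ptprc, which encodes CD45, had 0 and 1 count. Of the 12 class II presentation genes 11 had 0 counts in both libraries, among them H2-Ab1, Cd74 and the transactivator gene Ciita. The 7 endothelial markers summed to 0.119 and 0.227 CPM. Of the 9 luminal markers 7 reached 1 CPM. Of these, 3 had an interval above 1 (42.9%) and 0 below, against 6.61% and 5.65% of all genes. Those above were Krt18 (0.04, 0.0028 to 0.07), Krt19 (0.08, 0.04 to 0.12) and Cdh1 (0.08, 0.0016 to 0.17). All lay inside the central range of genes with like summed counts. That range was -0.07 to 0.11 for Krt18 and Krt19, and -0.09 to 0.12 for Cdh1. What part the makeup of the culture has in the lower B2m was not tested.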

How the data were processed

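Total RNA from 1 untreated and 1 PGE2-treated culture was column-purified and sequenced as stranded total RNA libraries, per the labels' protocols. Per the submitters' processing notes the authors used Trimmomatic, TopHat2, Bowtie and HTSeq with the mm10 build. Neither versions, read length, annotation nor strand setting of the counting is stated there. The authors deposited raw counts per gene symbol, not normalized, in 1 column per library: 16908429 counts untreated and 17582808 with PGE2.

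Counts were scaled with edgeR 4.0.16 (TMM factors 0.997 and 1.003) in R 4.3.3. One CPM stood for 16.9 counts untreated and 17.6 with PGE2. Log2 ratios used a prior of 0.5 counts. Ratio intervals are Clopper-Pearson and level intervals exact Poisson, at 95%. A count of 0 was given a limit of 3 counts. Genes at 1 CPM in at least 1 library (11387) form the background. TPM used GENCODE M21 exon lengths, found for 99.1% of these genes. The ratio procedure was tested on simulated counts with counting error only, which cannot show how it fares with variation between cultures.

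The 10 genes and 17 gene lists were chosen with earlier results of these data known. Of 221 list entries 220 matched a row. Named from each list were the 4 most abundant genes in CPM, those at 1 CPM whose interval excludes 1, and genes set by name. Other named genes were chosen after their values were seen, and marker lists are given as sums. Values of some list genes are not reported here. Alternatives were total-count, upper-quartile and DESeq2 1.42.0 scaling, totals without 3 abundant genes, a prior of 5, other minimums, a 99% interval, a 1.5-fold rule and other lengths.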

Additional observations from a re-analysis of the deposited data

How the results depend on the processing

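Neither group holds a replicate to leave out. No paired analysis was possible because each group holds 1 library. Under the alternatives run, the number of the 10 genes with an interval below 1 stayed at 1 and the number above 1 at 0, and none passed the fold rule, also at 1.5-fold. The log2 ratio of B2m ranged from -0.21 to -0.19, that of H2-D1 from -0.03 to -0.01, that of Cd274 from -0.10 to -0.08 and that of Tap2 from -0.72 to -0.60. The count of all genes past the fold rule, 35, became 13 with a prior of 5, 15 with the 99% interval, 83 with no minimum, 1 where 5 CPM was required, and 94 at 1.5-fold. Levels per length moved outside their counting intervals with other lengths for H2-K1, H2-D1, B2m, Tapbp and Cd274: with the longest coding transcript B2m was at 205 TPM untreated and H2-K1 at 22.7 TPM. The share of promoters with each motif was lower in the 250 bases before the start alone, such as 2.98% for the interferon-stimulated response element. Depth limits Psmb8, Psmb9 and Tap2 most, whose intervals include a 2-fold difference.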

Other observations

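Molecules related to class I, and some ligands of the natural killer cell receptor NKG2D, were also expressed in the CE1-4 libraries. Cd1d1, which presents lipids to natural killer T cells, had 331 counts untreated and 377 with PGE2, a log2 ratio of 0.12 (-0.09 to 0.34), and Mr1, which presents vitamin metabolites, had 251 and 267 (0.02, -0.23 to 0.28). Hfe, a regulator of iron uptake, had 295 and 297 counts (-0.05, -0.29 to 0.18), and Procr, the protein C receptor, 105 and 137 (0.32, -0.06 to 0.70). Of 7 class I-like genes 5 reached 1 CPM. Each of these had an interval that included 1, as did 9991 of all 11387 genes at 1 CPM. Among the NKG2D ligands, Ulbp1 had 1151 and 1214 counts (0.01, -0.10 to 0.13) and H60b 163 and 208 (0.29, -0.02 to 0.59). H60c had 5 and 9 counts, and Raet1a 0 and 2. Of the 8 ligand genes with a row, 2 reached 1 CPM and 3 had 0 counts in both libraries.

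Cxcl9, a chemokine gene raised by interferon gamma, had 0 counts untreated and 6 with PGE2, both under 1 CPM, and was chosen for mention after its values were seen.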
